A study of Rattus norvegicus with 18 samples.

Results

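The entries for miR-486, miR-451 and miR-144, which link skeletal muscle with red blood cells, were taken from a table of miRNA counts in rat muscle by name, as every row whose name after rno- is one of these in any arm. They were 5 of 909 entries, namely rno-miR-486, rno-miR-451-5p, rno-miR-451-3p, rno-miR-144-3p and rno-miR-144-5p, all among the 763 known miRNAs of the table. Small RNA had been sequenced from gastrocnemius, a calf muscle, in 3 groups of 6 male rats of the Brown Norway strain. Young rats of 6 months (young AL) and old rats of 28 months (old AL) were fed ad libitum, while old rats of 28 months on caloric restriction (old CR) received 55% of the ad libitum intake from 2 months of age. The question was whether these miRNAs differed with age and diet, and whether miR-486 varied between libraries with the red-cell or with the muscle miRNAs.

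miR-451 and miR-144 are processed from a single transcript that GATA factors switch on in developing red cells, and miR-451 matures by cleavage by Argonaute 2 without Dicer. miR-486 lies within an ankyrin gene and is produced both in striated muscle, where it favours growth signalling, and in red cells. Muscle tissue holds blood, so that a red-cell miRNA in whole muscle may come from blood within the vessels.

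The sequences of the miR-451 and miR-144 strands, from RefSeq for the GRCr8 build and written 5′ to 3′, are shown because the seeds set which messages each strand can pair with. Capitals mark the seed, bases 2 to 8.
rno-miR-451-5p: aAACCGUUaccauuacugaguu
rno-miR-451-3p: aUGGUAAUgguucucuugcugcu
rno-miR-144-3p: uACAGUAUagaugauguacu
rno-miR-144-5p: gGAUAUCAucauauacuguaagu
rno-miR-101a-3p: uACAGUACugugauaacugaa
RefSeq sequences were matched for 4 of the 5 members. None of the 4 shared its seed with another of the 693 mature entries searched. rno-miR-144-3p had the same 6 bases at positions 2 to 7 as rno-miR-101a-3p, shown for comparison, which had a mean level of 634 CPM (counts scaled to the library total) against 0.462 CPM for rno-miR-144-3p. The Mir144 and Mir451a hairpins lie on the same strand of chromosome 10 in GRCr8 with 89 bases between them. rno-miR-451-5p spans bases 17 to 38 of its 72-base hairpin.

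The libraries held 34940346 to 83110905 counts, of which 60.7% to 86.8% belonged to the miR-1 family, summed over its entries. Counts in the largest library exceeded the mapped reads that the paper lists for any sample. A read may therefore stand under several entries, and these are shares of counts, not of reads. Levels are CPM scaled with TMM factors, which ranged from 0.656 to 2.08. Old AL replicate 8 and old CR replicate 18 stood apart in leukocyte miRNAs, and results that rest on them are given with and without them. Of 13 striated muscle miRNAs, 11 were abundant enough to test, and their summed level was 150333 to 527768 CPM over all libraries. In bulk tissue, fewer cells of a type and less RNA per cell cannot be told apart.

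miR-486 was the most abundant member, with 13413 to 91487 counts in a library and a rank of 31 to 55 among the known miRNAs. Its lowest, median and highest levels were 309, 460 and 858 CPM in young AL muscle. In old AL muscle they were 418, 807 and 1169 CPM, and in old CR muscle 406, 595 and 743 CPM. The groups overlapped, although 3 of 6 old AL libraries lay above every young AL library. The mean level was 508 ± 191 CPM in young AL muscle, 577 ± 133 CPM in old CR and 783 ± 302 CPM in old AL muscle (SD, n = 6 each). The log2 fold change of old AL against young AL was 0.62 (SE 0.310, edgeR adjusted p = 0.249). That of old CR against young AL was 0.18 (SE 0.233, edgeR adjusted p = 0.744), and that of old CR against old AL was -0.44 (SE 0.259, edgeR adjusted p = 0.503). No neighbouring groups in the order of levels were separated by the test.

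rno-miR-451-5p, the strand of miR-451 that is loaded into Argonaute 2, was far less abundant, with 150 to 829 counts in a library. Its lowest, median and highest levels were 2.87, 5.46 and 7.98 CPM in young AL muscle. They were 5.24, 6.18 and 9.94 CPM in old AL muscle and 2.98, 4.07 and 7.89 CPM in old CR muscle. All groups overlapped, and 4 of 6 old CR libraries lay below every old AL library. The log2 fold changes were 0.25 for old AL against young AL (SE 0.243, edgeR adjusted p = 0.613), -0.27 for old CR against young AL (SE 0.293, adjusted p = 0.656) and -0.50 for old CR against old AL (SE 0.264, adjusted p = 0.440). None passed the threshold. The highest rno-miR-451-5p levels in old AL and old CR muscle were those of replicates 8 and 18. Without old AL replicate 8, old AL against young AL gave 0.13 (edgeR adjusted p = 0.850). Without old CR replicate 18, old CR against young AL gave -0.46 (edgeR adjusted p = 0.344). The other strand, rno-miR-451-3p, had 18 counts in all and 0 to 3 in a library, with 0 counts in 9 of 18 libraries, which allows up to 3 counts in each.

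rno-miR-144-5p had 24 to 111 counts in a library. Its lowest, median and highest levels were 0.459, 0.790 and 1.03 CPM in young AL muscle, against 0.816, 1.39 and 1.56 CPM in old AL and 0.473, 0.860 and 1.15 CPM in old CR muscle. Old AL libraries were high, with 5 of 6 above every young AL library, while the old CR libraries overlapped both other groups. The log2 fold change of old AL against young AL was 0.84 (SE 0.250, unadjusted p = 0.00540, edgeR adjusted p = 0.0879), which did not pass the threshold. DESeq2 gave 0.83 with an adjusted p of 0.0109, which passed it. Old CR against old AL gave -0.68 (SE 0.273, unadjusted p = 0.0287, edgeR adjusted p = 0.392, DESeq2 adjusted p = 0.113), and old CR against young AL gave 0.14 (SE 0.294, edgeR adjusted p = 0.834).

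rno-miR-144-3p, which carries the seed close to that of miR-101, was the least abundant of the 4 strands described by level, with 1 to 59 counts in a library. Its lowest, median and highest levels were 0.0766, 0.647 and 0.886 CPM in young AL muscle, against 0.242, 0.368 and 0.693 CPM in old AL and 0.0182, 0.287 and 0.708 CPM in old CR muscle. The groups overlapped, and the lowest values belonged to young AL replicate 1 and old CR replicate 15, which held 4 and 1 counts. The log2 fold changes were -0.37 for old AL against young AL (SE 0.464, edgeR adjusted p = 0.716), -0.60 for old CR against young AL (SE 0.675, adjusted p = 0.674) and -0.21 for old CR against old AL (SE 0.587, adjusted p = 0.960). None passed the threshold.

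**Figure D1:**
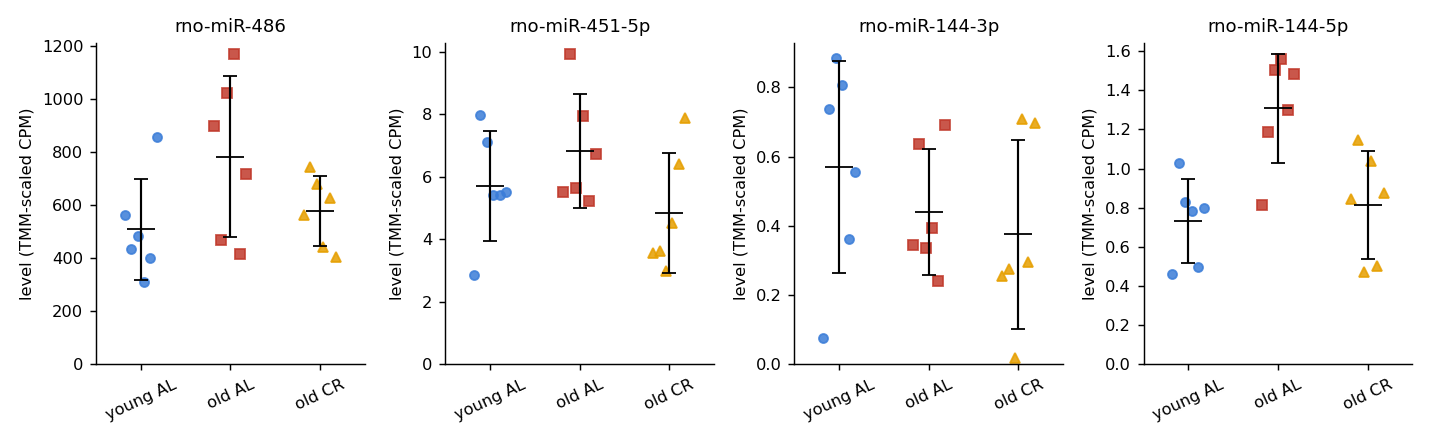
Level in TMM-scaled CPM of 4 strands in each library of the 3 groups (points), with the mean and SD over 6 libraries (bars). Old AL libraries of rno-miR-144-5p lie highest, at 0.816 to 1.56 CPM, and the groups overlap for every strand.

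Across all entries, edgeR's quasi-likelihood test called 24 of 732 in old AL against young AL (3.28%), 68 of 730 in old CR against young AL (9.32%) and 2 of 736 in old CR against old AL (0.272%) (threshold: adjusted p 0.05 and a 1.5-fold change). It called 0 of the 5 members tested in old AL against young AL, 0 of 4 in old CR against young AL and 0 of 5 in old CR against old AL. At an unadjusted p under 0.05 the members numbered 1, 0 and 1, in each case rno-miR-144-5p, against 23.4%, 25.5% and 12% of all entries. DESeq2 called 1, 0 and 0 members, against 10.5%, 13.4% and 2.2% of all entries. No member of the lists for red cells, striated muscle, leukocytes or endothelium was called by edgeR in any comparison. In old AL against young AL the median log2 fold change was 0.25 over the 3 red-cell miRNAs and 0.12 over the 11 striated muscle miRNAs tested, beside 0.06 over all entries. Over the 5 leukocyte miRNAs it was 1.16, with 5 of 5 higher and 2 at an unadjusted p under 0.05, and without old AL replicate 8 (chosen after seeing the data) it was -0.20, with 2 of 5 higher.

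Whether miR-486 varied with the red-cell or the muscle miRNAs was examined over the 18 libraries, in a family of 18 relations of log2 CPM. The relation of miR-486 with rno-miR-451-5p did not pass the threshold, with Pearson r = -0.07 (permutation p = 0.773, adjusted p = 0.928) and Spearman rho = 0.02 (permutation p = 0.935, adjusted p = 0.973). Without the 2 libraries farthest from the median of miR-486, old AL replicate 10 and young AL replicate 4, r was -0.26. The sign depended on the scaling, since r was 0.46 with library totals alone (permutation adjusted p = 0.107) and 0.04 with totals that left out the miR-1 family. For rno-miR-144-3p, r with miR-486 was -0.26 (permutation p = 0.314, adjusted p = 0.435) and rho was -0.35 (permutation p = 0.150, adjusted p = 0.380).

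miR-486 rose and fell with rno-miR-133a-3p, a muscle miRNA that acts on serum response factor in muscle precursors. Pearson r was 0.78 (permutation p = 0.000160, adjusted p = 0.00162) and Spearman rho 0.82 (permutation adjusted p = 0.00180). Without the same 2 libraries r was 0.69 (permutation p = 0.00416, not adjusted). Within young AL, old AL and old CR r was 0.82, 0.88 and 0.93 (exact permutation p = 0.0306, 0.0292 and 0.00278), none of which passed adjustment over the 54 values within groups. Levels of rno-miR-133a-3p and rno-miR-133c rested on nearly the same counts, with a ratio of 1.01 in every library. With rno-miR-133b-3p, from the miR-206 locus, r was 0.70 (permutation adjusted p = 0.00984) and rho 0.73 (permutation adjusted p = 0.00882). Without those 2 libraries r was 0.63 (permutation p = 0.0101, not adjusted).

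For the other muscle miRNAs examined, the relation with miR-486 did not pass the threshold. With rno-miR-1-3p, which takes most of the counts together with its family, r was -0.36 (permutation adjusted p = 0.296), but with totals that left out the miR-1 family it was -0.63 and passed (permutation adjusted p = 0.0211). With rno-miR-206-3p, a miRNA of regenerating and denervated muscle, r was 0.10 (permutation adjusted p = 0.888). For rno-miR-208b-3p and rno-miR-499-5p, which are encoded in slow myosin genes, r was -0.35 and 0.01. The difference between these values of r was not tested.

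Among the red-cell strands, 1 of 3 relations passed the threshold with TMM scaling. rno-miR-451-5p and rno-miR-144-3p gave r = 0.74 (permutation p = 0.000180, adjusted p = 0.00162) and rho = 0.62 (permutation p = 0.00678, adjusted p = 0.0407). Without young AL replicate 1 and old CR replicate 15, the 2 libraries farthest from the median of rno-miR-451-5p, r was 0.53 (permutation p = 0.0367, not adjusted). rno-miR-451-5p and rno-miR-144-5p gave r = 0.47 (permutation adjusted p = 0.170), and the strands of miR-144 gave r = 0.51 (permutation adjusted p = 0.124), which was 0.04 without those 2 libraries. Both relations passed with library totals, at r = 0.67 (permutation adjusted p = 0.0117) and 0.59 (permutation adjusted p = 0.0310). The strands of miR-144 also passed with totals that left out the miR-1 family, at r = 0.56 (permutation adjusted p = 0.0449), and on deviations from the group means, at r = 0.65 (permutation adjusted p = 0.0306). With TMM scaling, 3 of 18 relations passed an adjusted p of 0.05 in all.

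**Figure D2:**
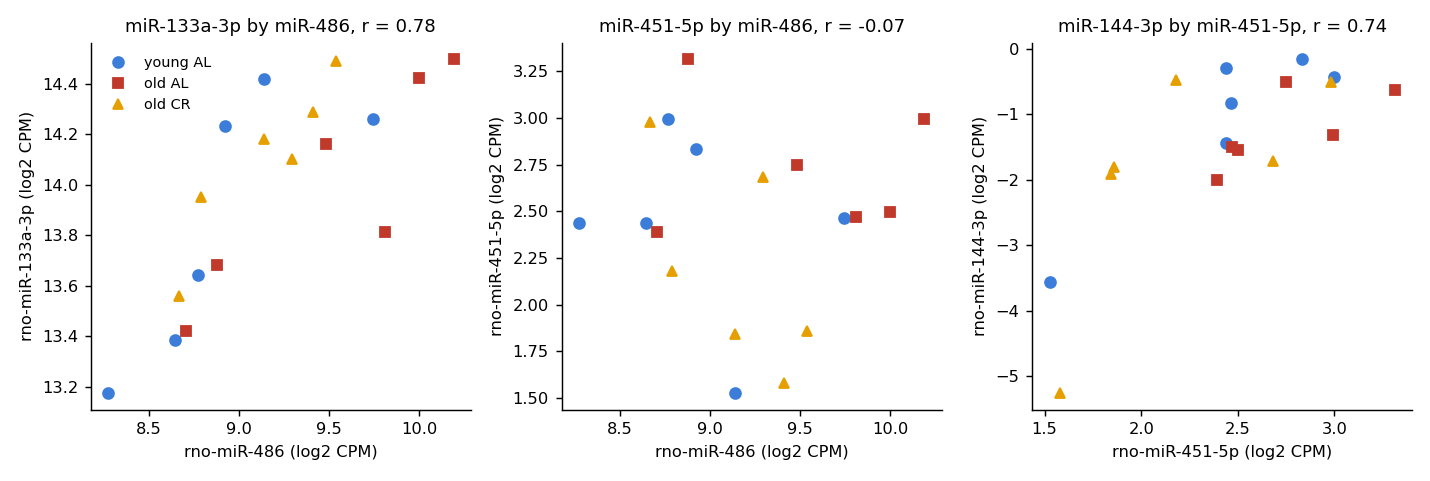
Log2 CPM of rno-miR-133a-3p against miR-486, of rno-miR-451-5p against miR-486 and of rno-miR-144-3p against rno-miR-451-5p, with 1 point for each of 18 libraries. The points rise together in the first panel (r = 0.78) and scatter in the middle one (r = -0.07), and in the last (r = 0.74) 2 libraries, young AL replicate 1 and old CR replicate 15, lie far below the rest (r = 0.53 without them).

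**Figure D3:**
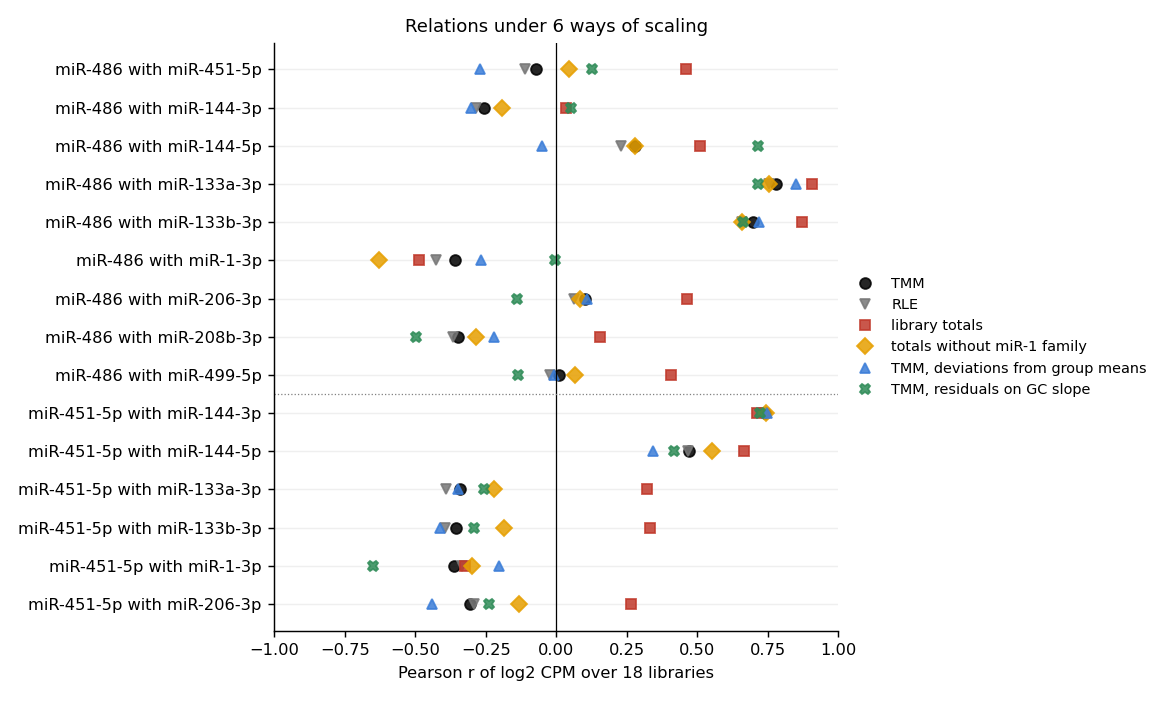
Pearson r over 18 libraries for 15 pairs, with 1 marker for each of 6 ways of scaling. The relations of miR-486 with rno-miR-133a-3p and rno-miR-133b-3p and of rno-miR-451-5p with rno-miR-144-3p are positive under each, while that of miR-486 with rno-miR-451-5p runs from -0.27 to 0.46. For miR-486 with rno-miR-144-5p r runs from -0.050 to 0.72, and with the muscle miRNA rno-miR-1-3p from -0.63 to -0.0038.

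Base composition moved with miR-486. The GC slope of a library, the slope of log2 CPM (less each miRNA's mean) on GC content over known miRNAs, was correlated with miR-486 at r = 0.63 (permutation p = 0.00589, adjusted p = 0.0396) and rho = 0.61 (permutation p = 0.00881, adjusted p = 0.0791), and at r = 0.52 without the 2 most extreme libraries (replicate 6 of young AL and 7 of old AL). In the case of rno-miR-451-5p, of 36.4% GC, that correlation was -0.27 (permutation adjusted p = 0.319). After regression on the GC slope, chosen after seeing the data, miR-486 and rno-miR-133a-3p, of 54.5% GC, still gave r = 0.72 (permutation adjusted p = 0.00480), and miR-486 and rno-miR-451-5p gave 0.13. miR-486 and rno-miR-144-5p moved from r = 0.28 (permutation adjusted p = 0.387) to 0.72 (permutation adjusted p = 0.00480).

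The known miRNAs most like miR-486 were sought among 169 with a mean of at least 10 CPM, on log2 CPM centred on the group means. The highest r were those of rno-let-7d-3p (0.91), rno-miR-378a-5p (0.90), rno-miR-328a-3p (0.89), rno-miR-3557-3p (0.89) and rno-miR-361-3p (0.87), and rno-miR-133a-3p came 7th of the 169. rno-miR-378a-5p comes from an intron of the PGC-1β gene, and rno-miR-3557-3p held nearly the same counts as it. The smallest SD of the log2 ratio to miR-486 belonged to rno-miR-378a-5p (0.225), rno-let-7d-3p, rno-miR-3557-3p, rno-miR-328a-3p and rno-miR-423-3p (0.260). These are descriptions over 18 libraries that differed in depth and in GC slope. Across 156 miRNAs with a sequence, r with miR-486 was correlated with GC content at 0.55, and r with rno-miR-451-5p at -0.33.

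For rno-miR-451-5p the values were lower. The highest r were those of rno-miR-142-5p (0.61), rno-miR-140-5p (0.61), rno-miR-148a-3p (0.60), rno-miR-450b-5p (0.59) and rno-miR-29c-5p (0.59). The smallest SD of the log2 ratio belonged to rno-miR-29c-5p (0.388), rno-miR-126a-3p, rno-miR-140-5p, rno-miR-450a-5p and rno-miR-450b-5p (0.445). miR-142 is a leukocyte miRNA, and r of rno-miR-451-5p with rno-miR-142-3p was 0.66 (permutation adjusted p = 0.0483 over 76 relations with listed markers) and rho 0.48 (permutation adjusted p = 0.217), falling to r = 0.50 without old AL replicate 8 and old CR replicate 18. By rank, rno-miR-144-3p with rno-miR-142-3p gave rho = 0.75 and rno-miR-144-5p with rno-miR-142-5p 0.69 (permutation adjusted p = 0.0129 and 0.0418). Their r was 0.66 and 0.40 (permutation adjusted p = 0.0962 and 0.338). It was 0.88 and 0.70 without old AL replicate 8 and old CR replicate 18, and 0.48 and 0.29 without young AL replicate 1 and old CR replicate 15. With the other listed leukocyte miRNAs neither strand passed by rank. rno-miR-144-3p gave rho = 0.41, 0.26, 0.03 and -0.23 with rno-miR-142-5p, rno-miR-223-3p, rno-miR-155-5p and rno-miR-150-5p. For rno-miR-144-5p rho was 0.52, -0.02, -0.25 and -0.27 with rno-miR-223-3p, rno-miR-142-3p, rno-miR-150-5p and rno-miR-155-5p.

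Of the same 76 relations 4 passed the threshold by Pearson r, and 2 of them involved miR-486. With rno-miR-92a-3p, of 57.1% GC and abundant in red cells but made in other cells too, r was 0.78 (permutation adjusted p = 0.00608) and rho 0.75 (permutation adjusted p = 0.0129), and r was 0.64 without the 2 farthest libraries. The other members of that list were split. miR-486 gave r = 0.57 with rno-miR-25-3p but -0.58 with rno-miR-16-5p, -0.48 with rno-miR-363-3p, -0.45 with rno-miR-425-5p and -0.05 with rno-miR-185-5p (permutation adjusted p = 0.105, 0.105, 0.253, 0.260 and 0.898). By rank, rho with rno-miR-16-5p was -0.67 (permutation adjusted p = 0.0461) and with rno-miR-363-3p -0.64 (permutation adjusted p = 0.0651). With rno-miR-126a-3p, an endothelial miRNA, r was -0.82 (permutation adjusted p = 0.00304) and rho -0.83 (permutation adjusted p = 0.00456), and r was -0.78 without the same 2 libraries. The other members of the endothelium list did not pass with miR-486. Their r was -0.41 for rno-miR-126a-5p and -0.35 for rno-miR-126b (permutation adjusted p = 0.333 and 0.368). The remaining relation that passed was that of rno-miR-144-3p with rno-miR-126b, at r = 0.66 (permutation adjusted p = 0.0296) and rho = 0.63 (permutation adjusted p = 0.0731). The part of composition and of endothelial RNA in these relations was not tested.

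**Figure D4:**
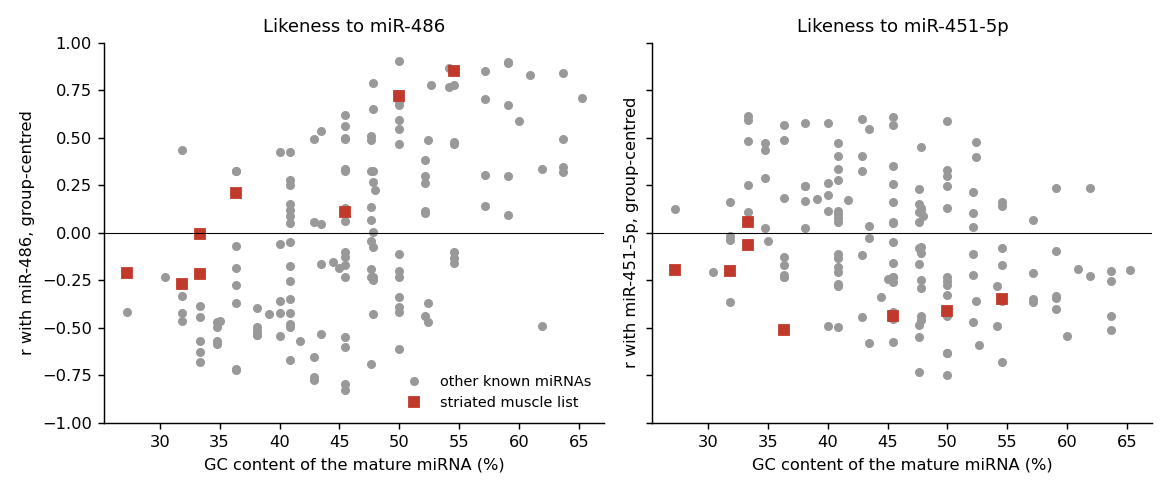
Pearson r of each known miRNA with miR-486 (left) and rno-miR-451-5p (right), on log2 CPM centred on the group means, against the GC content of its mature strand. Striated muscle miRNAs are squares, and r with miR-486 is higher at higher GC content (correlation 0.55 across 156 miRNAs).

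Ratios within a library do not depend on its scaling, but they can vary with its GC slope. The log2 ratios of miR-486 to rno-miR-451-5p and to rno-miR-144-3p were each correlated with the GC slope at r = 0.62 (permutation adjusted p = 0.0396). By rank these gave rho = 0.55 and 0.57 (permutation adjusted p = 0.0791 for each). For miR-486 to rno-miR-133a-3p r was 0.43 (permutation adjusted p = 0.137). The part of base composition in the ratios was not tested. miR-486 counts were 47.3 to 228 times those of rno-miR-451-5p (median 102). The SD of that log2 ratio over 18 libraries was 0.758, while the SD of the log2 ratio of miR-486 to rno-miR-133a-3p was 0.332. To rno-miR-133b-3p it was 0.381. To the muscle miRNAs rno-miR-206-3p, rno-miR-1-3p, rno-miR-499-5p and rno-miR-208b-3p it was larger, at 0.818, 0.844, 1.09 and 1.56. To the red-cell strands rno-miR-144-5p and rno-miR-144-3p it was 0.662 and 1.49. The log2 ratio of miR-486 to rno-miR-133a-3p had a lowest, median and highest value of -5.31, -4.89 and -4.52 in young AL, -4.80, -4.55 and -4.00 in old AL, and -5.16, -4.92 and -4.81 in old CR muscle. Old CR libraries lay below every old AL library, by a margin of less than 0.01, and young AL libraries overlapped both.

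The mean log2 ratio of miR-486 to rno-miR-133a-3p was -4.96 ± 0.13 in old CR and -4.49 ± 0.30 in old AL muscle (SD, n = 6), a difference of -0.47 (exact permutation p = 0.00216, the smallest that 6 against 6 libraries allow, adjusted p = 0.0390 over 18 tests). The adjusted p stayed at 0.0390 without any 1 of the old AL libraries, while without any 1 of the old CR libraries it was 0.0779 to 0.156 and the call was lost. The difference was -0.53 to -0.37 in the first case and -0.50 to -0.43 in the second. Old CR libraries stayed below every old AL library in each, which was fixed in advance because leaving out a library cannot make separate groups overlap. With so few libraries the exact p moves in coarse steps, so the lost call cannot show that the difference rests on old CR libraries. With rno-miR-133b-3p in place of rno-miR-133a-3p, chosen after seeing the data, the difference was -0.36 (exact permutation p = 0.0693, adjusted p = 0.416) and the groups overlapped. Old AL against young AL gave 0.45 (exact permutation p = 0.0325, adjusted p = 0.292), and old CR against young AL gave -0.02 (exact permutation p = 0.898, adjusted p = 0.951). For the ratio of miR-486 to rno-miR-451-5p the differences were 0.31, 0.49 and 0.18 in the same order of old AL against young AL, old CR against young AL and old CR against old AL (exact permutation adjusted p = 0.727, 0.623 and 0.940). The log2 ratio of rno-miR-144-3p to rno-miR-144-5p, strands of a single hairpin, differed by -0.99 on average in old AL against young AL muscle, with overlapping groups (exact permutation p = 0.0606, adjusted p = 0.364).

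**Figure D5:**
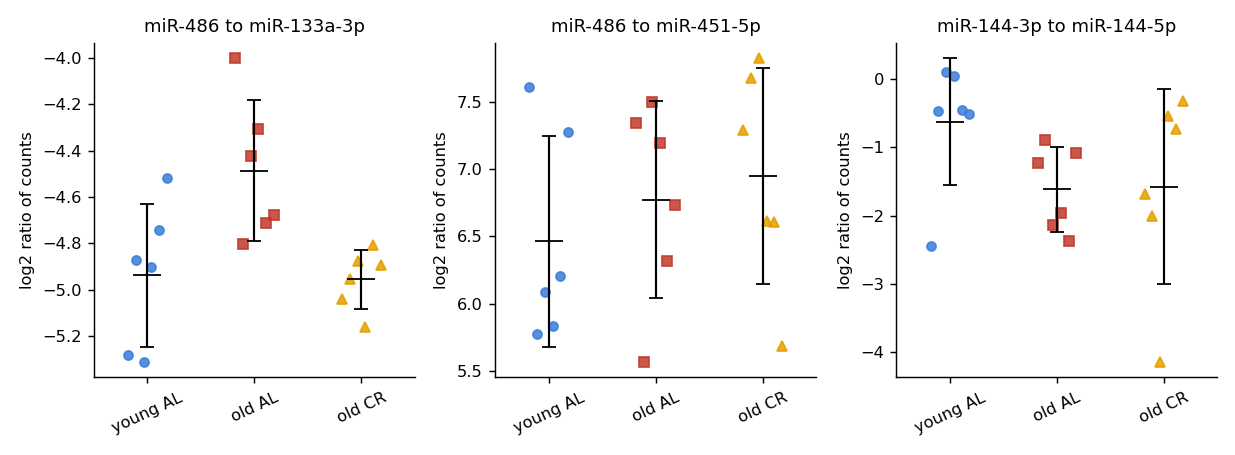
Log2 ratio of counts within each library for 3 pairs, by group, with the mean and SD over 6 libraries. Old CR libraries lie between -5.16 and -4.81 for miR-486 to rno-miR-133a-3p, just below the old AL libraries at -4.80 to -4.00.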

How the data were processed

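Small RNA libraries of 18 rats were analysed. The authors trimmed reads with Cutadapt (1.2.1) and Sickle, identified known miRNAs and candidates with miRDeep2, and deposited raw counts per miRNA, for which the paper's methods name featureCounts. Bowtie2 2.4.0 and Rnor_6.0 are named in the submitters' processing notes. How reads with several matching miRNAs were counted is not given in the sources used here. All 18 count columns were matched to samples and 0 were left unused.

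Entries with at least 10 counts over the libraries compared were tested with edgeR 4.0.16 (TMM, robust quasi-likelihood test) in R 4.3.3, with a fit for each pair of groups and Benjamini-Hochberg adjustment over all entries. DESeq2 1.42.0 with its defaults was an alternative. It was also run with a minimum of 10 counts, an alpha of 0.05 or both, partly in search of a count of calls known from earlier work on these data. In old AL against young AL the defaults gave 86 calls and the other forms 84 to 87, and rno-miR-144-5p was called in each. Log2 CPM used a prior count of 0.5. Relations used 100000 permutations, within groups all 720, and ratios every arrangement of 6 against 6 libraries. All tests are two-sided. The scripts were tested on simulated data. Intervals and limits for a count of 0 cover counting error only. Named miRNAs were the members, the marker lists, seed matches and the 5 most alike by r and by SD for miR-486 and rno-miR-451-5p. Members and lists were chosen with earlier results of these data known. The labels give each rat's group, and p-values of group comparisons rest on the spread between the 6 rats of a group. Those of relations come from permuting libraries across the groups, except within groups and on deviations from the group means.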

Additional observations from a re-analysis of the deposited data

Results flagged for a closer look

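Of the groups of 6 libraries examined for a value far from the rest, 1 of 30 was marked, where chance marks about 1 in 20. The log2 ratio of rno-miR-144-3p to rno-miR-144-5p in young AL replicate 1 was -2.44, and its gap to the nearest library was 0.760 of the range of the group. That library held 4 counts of rno-miR-144-3p, and its GC slope was 0.180 on the log2 scale per 10 points of GC. The part of either in the ratio was not tested.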

How the results depend on the processing

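No paired analysis was possible because the groups share no replicate numbers. The depth was lowest for rno-miR-451-3p, with 18 counts in all, and for rno-miR-144-3p, with as few as 1 count in a library. Of 318 alternative values for the members' fold changes, 315 kept their direction and side of the threshold. DESeq2 called rno-miR-144-5p in old AL against young AL, and its edgeR adjusted p lay between 0.0522 and 0.202 elsewhere. Library totals moved the median log2 fold change of all entries by 0.17 in old AL against young AL, -0.13 in old CR against young AL and -0.28 in old CR against old AL. They turned rno-miR-144-5p in old CR against young AL to -0.036. For rno-miR-144-3p in old CR against old AL the log2 fold change was -0.50 to 0.026 with 1 library left out, positive without old CR replicate 15.

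Entries called in old AL against young AL numbered 0 with library totals, 86 with DESeq2, 37 with filterByExpr, 38 in a single fit over 3 groups, 53 among known miRNAs and 6 with shared entries counted once, and 9 to 20 with 1 library left out. In old CR against young AL they numbered 110 with DESeq2 and 45 to 67 with 1 library left out. In old CR against old AL, DESeq2 called 18, and 0 were called with upper-quartile factors, library totals, no robust estimation, known miRNAs alone, shared entries counted once, or old AL replicate 8 and old CR replicate 18 left out together, beside 0 to 3 with 1 library left out. These are edgeR counts where DESeq2 is not named, and edgeR with TMM had 88 entries at an unadjusted p under 0.05. The causes were not tested.

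The 3 relations that passed the threshold passed it under each alternative of this section. Leaving out the 2 libraries farthest from the median was not among these, and its p-values were not adjusted. For other relations, 7 values passed the threshold under an alternative (among them rno-miR-451-5p with rno-miR-1-3p, at r = -0.65 after regression on the GC slope). In all, 35 values changed sign, none of a relation past the threshold. With library totals r of miR-486 was 0.46 with rno-miR-451-5p, 0.035 with rno-miR-144-3p and 0.16 with rno-miR-208b-3p, and r of rno-miR-451-5p was 0.32, 0.33 and 0.26 with rno-miR-133a-3p, rno-miR-133b-3p and rno-miR-206-3p. RLE factors gave -0.021 for miR-486 and rno-miR-499-5p, and totals without the miR-1 family gave 0.044 for miR-486 and rno-miR-451-5p. Deviations from the group means gave -0.050 for miR-486 and rno-miR-144-5p, -0.0086 for miR-486 and rno-miR-499-5p and -0.067 for rno-miR-451-5p and rno-miR-499-5p. Without old AL replicate 8 and old CR replicate 18 (chosen after seeing the data) miR-486 gave 0.075, -0.075 and -0.090 with rno-miR-451-5p, rno-miR-206-3p and rno-miR-499-5p. Residuals on the GC slope gave 0.13, 0.053, -0.14 and -0.14 for miR-486 with rno-miR-451-5p, rno-miR-144-3p, rno-miR-206-3p and rno-miR-499-5p. With 1 library left out, r of miR-486 was -0.062 to 0.31 with rno-miR-206-3p and -0.23 to 0.24 with rno-miR-499-5p, and r of rno-miR-451-5p was -0.090 to 0.082 with rno-miR-208b-3p and -0.059 to 0.15 with rno-miR-499-5p.

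For the log2 ratio of miR-486 to rno-miR-133a-3p, old CR against old AL gave -0.53 to -0.37 with 1 library left out and -0.36 with rno-miR-133b-3p instead, and old CR against young AL gave -0.093 to 0.066, and 0.074 with rno-miR-133b-3p. For rno-miR-144-3p to rno-miR-144-5p, old AL against young AL gave -1.35 to -0.84 with 1 library left out, passing the threshold without young AL replicate 1 (exact permutation adjusted p = 0.0390), and old CR against old AL gave -0.21 to 0.55. For rno-miR-451-5p to rno-miR-133a-3p, old AL against young AL gave -0.16 to 0.29, and -0.043 without young AL replicates 1 and 2, whose library numbers stand apart. In old CR against old AL the range was -0.40 to 0.43 for rno-miR-451-5p to rno-miR-144-3p, -0.40 to 0.69 for miR-486 to rno-miR-144-3p and -0.066 to 0.43 for miR-486 to rno-miR-451-5p.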
